A study of Mus musculus with 6 samples.

Results

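The accessible chromatin of the 6 mouse actin isoform genes was examined in nuclei of the newborn heart. Acta1 and Actc1 encode the sarcomeric skeletal and cardiac alpha-actins, Acta2 and Actg2 encode the smooth muscle alpha- and gamma-actins, and Actb and Actg1 encode the cytoplasmic beta- and gamma-actins. The 6 genes were chosen by name out of 21938 protein-coding genes. Every peak overlapping the body of one of these genes or the 10 kb to either side was included, which gave 147 of the 587191 peaks in the series. Overlapping peaks of different libraries were merged into regions, 34 of 169881 regions in all, and 15 of the 34 held a peak in every library.

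Accessible chromatin was mapped by OMNI-ATAC-Seq, a method that tags open DNA by transposition of sequencing adapters, on 50000 nuclei per library from whole mouse hearts at postnatal day 1 (P1). All nuclei were first purified through a 2.2 M sucrose cushion. The Input libraries hold nuclei of wildtype hearts without immunoprecipitation, and the PCM1 libraries hold nuclei of WT hearts after magnet-assisted immunoprecipitation (MAN-IP) with an antibody against PCM1, a centrosomal protein found on the nuclear envelope of cardiomyocytes. The Myc libraries hold nuclei after MAN-IP with a Myc antibody from Nkx2-5 Cre/+; R26RSun1-Myc-Egfp/+ hearts, in which Cre from the Nkx2-5 locus switches on a tagged protein of the nuclear envelope in cells of the Nkx2-5 lineage. Each of the 3 groups has 2 biological replicates. The Myc group differs from the others in both genotype and antibody, and these cannot be told apart. In bulk nuclei, fewer nuclei of a type and less accessible chromatin per nucleus cannot be told apart either.

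Actin filaments form the thin filaments of the sarcomere in cardiac and skeletal muscle, the contractile filaments of smooth muscle, and the cytoskeleton of all cells. The genes of muscle actins and several cytoskeletal actins are classic targets of serum response factor (SRF), which binds the CArG box, a run of 6 A or T bases between CC and GG. Actc1 is the principal actin of the heart, Acta1 and Acta2 are also transcribed in the heart during its development, and Actg2 is known from gut and bladder smooth muscle.

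All 6 genes lie on the minus strand of GRCm38, the assembly also called mm10. Acta1 spans chr8:123891769-123894751, Actc1 spans chr2:114047282-114053548 and Acta2 spans chr19:34241090-34255590. Actg2 spans chr6:83512905-83536265, Actb spans chr5:142903115-142906754 and Actg1 spans chr11:120345690-120348542. Positions below are given in bp from the start of the principal transcript in GENCODE M21, with negative values upstream.

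The promoters of 4 of the 6 genes were found in the RefSeq promoter table (GRCm38.p6), and Actb and Actg2 were not. They are shown here because the peaks at the starts of these genes lie over SRF motifs. Each is written 5′ to 3′ on the gene's strand, from 250 bases before the RefSeq start up to whichever of the RefSeq and GENCODE starts is further upstream. Capitals mark CArG boxes and CArG-like sequences with 1 G or C in the core. The Acta1 sequence is chr8:123894776-123895025, the Actc1 sequence is chr2:114052888-114053125 and the Actg1 sequence is chr11:120348543-120348745. For Acta2, whose RefSeq start lies 217 bp downstream of the GENCODE start, the sites at chr19:34255438-34255467 and chr19:34255388-34255417 are shown.
Acta1: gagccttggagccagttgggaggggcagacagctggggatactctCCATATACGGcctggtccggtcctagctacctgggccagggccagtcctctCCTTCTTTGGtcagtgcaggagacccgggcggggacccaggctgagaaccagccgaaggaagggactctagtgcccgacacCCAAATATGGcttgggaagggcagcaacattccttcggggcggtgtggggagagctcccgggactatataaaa
Actc1: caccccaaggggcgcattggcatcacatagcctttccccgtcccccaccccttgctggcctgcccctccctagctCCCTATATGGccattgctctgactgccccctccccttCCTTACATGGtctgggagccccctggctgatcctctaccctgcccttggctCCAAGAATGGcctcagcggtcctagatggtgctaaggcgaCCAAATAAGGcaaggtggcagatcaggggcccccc
Actg1: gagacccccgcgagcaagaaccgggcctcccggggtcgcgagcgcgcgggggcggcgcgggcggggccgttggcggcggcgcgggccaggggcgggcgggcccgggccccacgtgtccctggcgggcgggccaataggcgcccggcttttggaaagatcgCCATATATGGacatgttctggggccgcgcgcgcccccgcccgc
Acta2 upstream site: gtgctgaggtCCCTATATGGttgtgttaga
Acta2 downstream site: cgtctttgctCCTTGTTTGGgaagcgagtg

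Acta1, Actc1 and Actg1 each held 1 CArG box, and Acta2 held 2 CArG-like sequences. Acta1 held 2 CArG-like sequences beside its CArG box, and Actc1 held 3. Of the 250 bases before the start in all 32851 promoters of the table, 1.47% held a CArG box and 7.24% held a CArG-like sequence. In Acta1 the CArG box was centred 21.5 bp upstream of the median peak summit, and in Actg1 it was centred 16.5 bp upstream. In Actc1 the CArG box was centred 40.5 bp downstream of the median summit, and its CArG-like sequences lay at -87.5, -50.5 and 0.5 bp from that summit. In Acta2 the CArG-like sequences lay at -90.5 and -40.5 bp from the summit. The other motifs were searched on both strands. TATAAA, the TATA box, was found in the 250 bases of Acta1 and in 12.4% of promoters. Actc1 held none in those bases. It held 1 outside them, within 150 bp of the median summit of its start region, as did 4.08% of tested regions over a start site. CATTCC, the MCAT element bound by TEAD factors, was found in Acta1 and Acta2 and in 12.6% of promoters, and CAGCTG, an E-box, was found in the same 2 actin promoters and in 13.0% of all. GGGCGG, the site bound by Sp1, occurred 6 times in Actg1, with some matches overlapping, and 2 times in Acta1, and 32.7% of promoters held it. A match is a description of these letters and not evidence of binding.

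**Figure D1:**
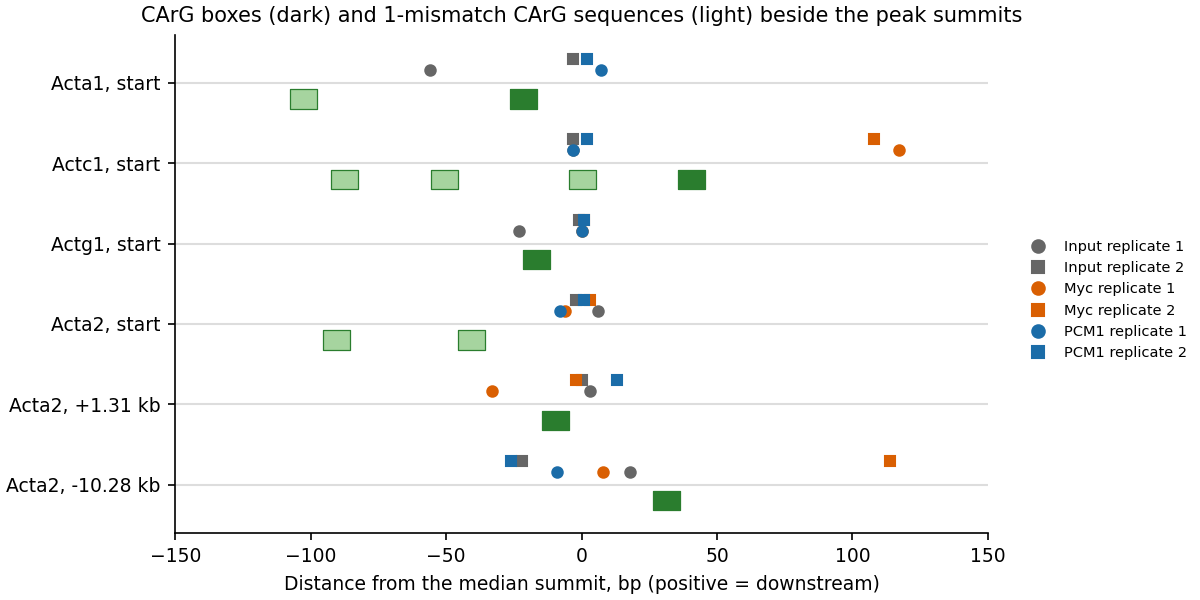
CArG boxes (dark bars) and CArG-like sequences with 1 G or C in the core (light bars) within 150 bp of the median summit of 6 actin regions, with the summit of each library as a point (circles replicate 1, squares replicate 2). The x axis is the distance from the median summit in bp. The Actc1 summits of both Myc libraries lie over 100 bp downstream of the others.

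The promoter of each gene was described by its rank percentile, the position of the strongest peak within 1 kb of the start among all peaks of the same library by -log10 q, with 100 the strongest and 0 for no peak. The order of mean percentiles over the 6 libraries was Actb with 97.0 ± 1.10, Actc1 with 91.7 ± 4.22, Actg1 with 90.2 ± 9.09, Acta2 with 78.3 ± 8.67, Acta1 with 24.9 ± 21.5 and Actg2 with no peak (SD, n = 6). The order depended on the measure of strength: ranked by fold enrichment, the means were 74.0 for Acta2, 70.1 for Actb, 49.4 for Actc1, 42.8 for Actg1 and 26.1 for Acta1. By -log10 q, Actc1 and Actg1 differed by less than their spread, and the percentiles of Acta1, from 0 to 50.5, lay below those of Acta2, from 61.4 to 85.7. The 4 genes with a promoter peak in every library thus included 1 sarcomeric, 1 smooth muscle and both cytoplasmic genes. For comparison, between 60.7% and 66.8% of protein-coding genes had a promoter peak in a library, and their median percentile was between 86.7 and 92.5.

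**Figure D2:**
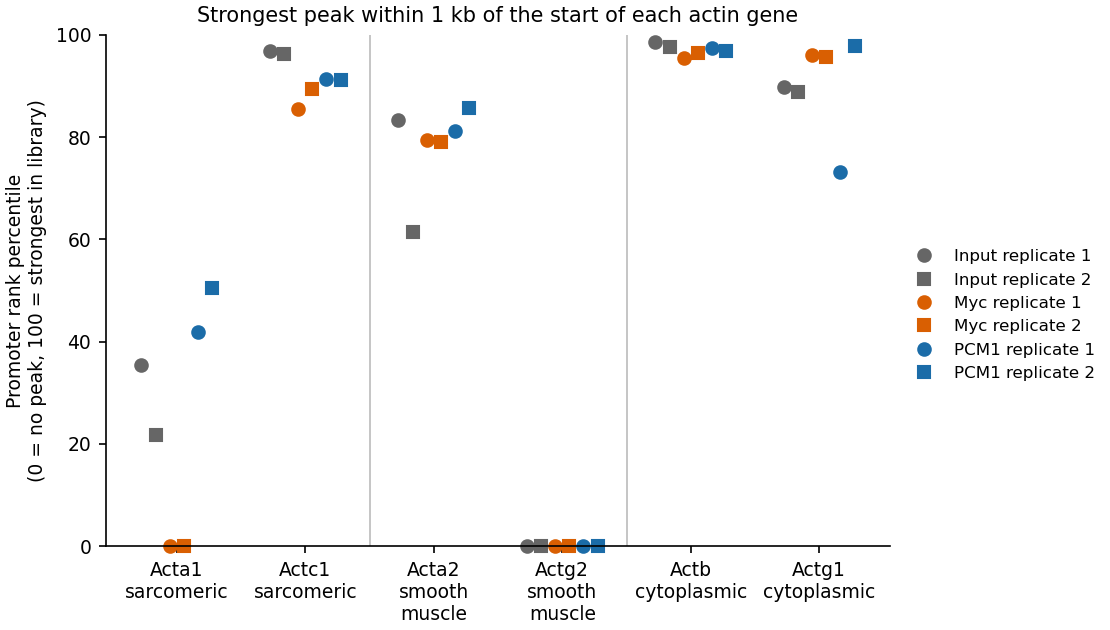
Promoter rank percentile (y axis, 0 to 100, 0 for no peak) of the strongest peak within 1 kb of the start of each actin gene. Each point is a library. Actb lies above 95 in all libraries, Actg2 lies at 0 in all, and Acta1 lies at 0 in both Myc libraries.

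Averaged by class, the percentile was 93.6 for the cytoplasmic genes, 58.3 for the sarcomeric genes and 39.2 for the smooth muscle genes. The gap between cytoplasmic and smooth muscle genes was 54.4 ± 5.84 percentile points and the gap between cytoplasmic and sarcomeric genes was 35.3 ± 13.9 points (SD, n = 6). Ranked by -log10 q, both were above 0 in 6 of 6 libraries. The gap between sarcomeric and smooth muscle genes was 19.2 ± 11.7 points. It was 24.4 and 28.3 in Input, 26.0 and 27.9 in PCM1, and 3.01 and 5.24 in Myc, where no Acta1 promoter peak was found. These averages rest on 2 genes per class that differ widely, and with peaks ranked by fold enrichment the gap between sarcomeric and smooth muscle genes was 0.804 points. Ranked that way, both gaps of the cytoplasmic genes were below 0 in PCM1 replicate 1, where Actb ranked at 67.6 and Actg1 at 0.745.

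The windows held from 2.5 peaks per library for Acta1 to 5.33 for Acta2 on average. Per 10 kb of window the mean was 2.26 for Actg1, 1.65 for Actc1, 1.55 for Actb, 1.55 for Acta2, 1.09 for Acta1 and 0.807 for Actg2. The median over all protein-coding genes was 0.637, and the upper quartile was 1.06, so 5 of the 6 windows lay above that quartile. A short gene has a short window, where the same number of peaks gives a higher density. Counted per window, the median over all protein-coding genes was 2.83 peaks, and Acta1 lay below it. Of the 34 regions, 44.1% held a peak in every library, against 28.8% of the 169881 regions of the series. Of the 15 actin regions with a peak in every library, 4 held the start of a neighbouring gene. These were the antisense gene C130080G10Rik beside Actc1, Dguok beside Actg2, Fbxl18 beside Actb and, within the start region of Actg1 itself, the lncRNA 0610009L18Rik.

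**Figure D3:**
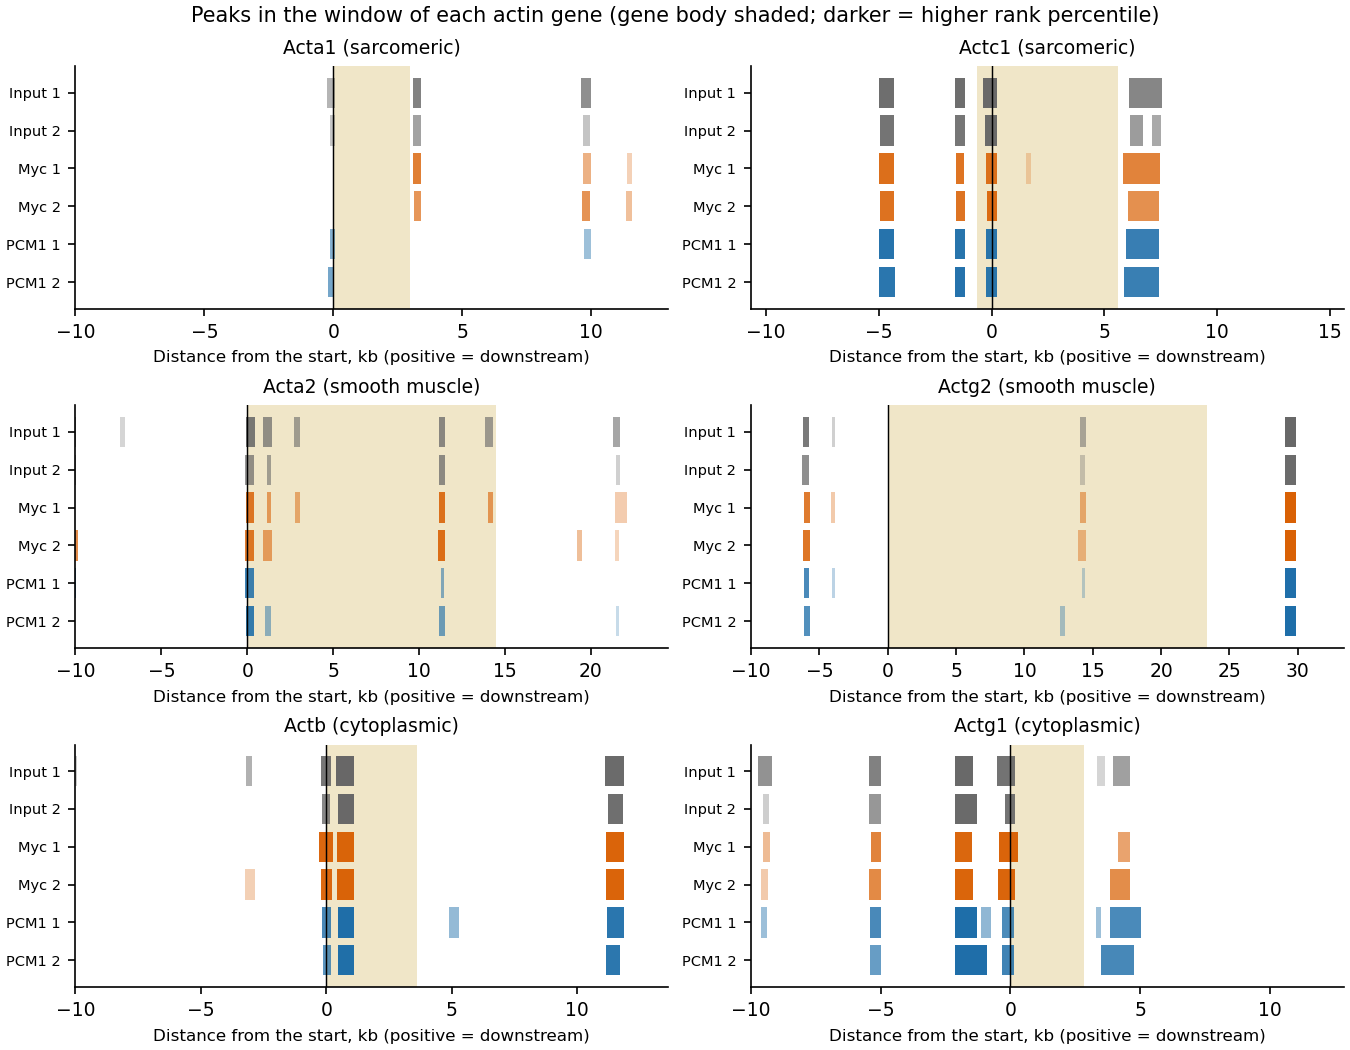
Peaks in the window of each of the 6 actin genes. The x axis is the distance from the start in kb with positive values downstream, each row is a library, the shading marks the gene body, and darker bars have a higher rank percentile. Acta1 shows the start peak in Input and PCM1 and the peak past its 3′ end in Input and Myc, and Actg2 has no peak at its start.

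Actc1 had 4 regions with a peak in every library, at its start, at -1454 bp, at -4597 bp and, past its 3′ end, at 6530 bp. The start region was lower in Myc than in either other group. Its summit height, the stacked fragments at the summit divided by the library's genome-wide background, was 178 and 213 in Input, 179 and 194 in PCM1 and 98.6 and 123 in Myc, so the Myc values lay below the other 4. The log2 difference of Myc against Input was -0.98 ± 0.12 (SE, limma, adjusted p = 4.70e-07), and that of Myc against PCM1 was -0.80 ± 0.12 (limma, adjusted p = 7.61e-06). With the authors' fold enrichment as height they were -0.77 and -0.15, and neither was called (limma, adjusted p = 0.177 and 0.77). PCM1 and Input differed by -0.18 with a 95% interval from -0.44 to 0.07 (limma, adjusted p = 0.381). The summit in Input and PCM1 lay between -74 and -69 bp in all 4 libraries, beside the CArG-like sequence centred at -70.5 bp. In Myc it lay at 46 and 37 bp, downstream of the start of the principal transcript. The annotated gene reaches further upstream, to chr2:114053548, so the summits of all 6 libraries lie within it. No test was made of the position of the summit.

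The upstream regions of Actc1 moved in the same direction. At -1454 bp, where the antisense gene C130080G10Rik starts, heights were 129 and 127 in Input, 191 and 224 in PCM1 and 90.2 and 98.2 in Myc, and the 3 groups did not overlap. This region was lower in Myc than in Input (log2 difference -0.60 ± 0.13, limma, adjusted p = 0.00108) and higher in PCM1 than in Input (0.58 ± 0.13, limma, adjusted p = 0.00271). The latter call was lost without Input replicate 2, with 0.55 and an adjusted p of 0.0522 (limma). With fold enrichment as height, the differences of Myc and PCM1 against Input at -1454 bp were -0.35 and 0.22 (limma, adjusted p = 0.565 and 0.767). At -4597 bp, heights were 123 and 129 in Input, 176 and 169 in PCM1 and 90.2 and 89.1 in Myc. Myc was lower than Input by a log2 difference of -0.65 ± 0.13 (limma, adjusted p = 0.00064), and lower than PCM1 by -0.99 ± 0.13 (limma, adjusted p = 6.32e-07). With fold enrichment as height these were -0.14 and -0.33 (limma, adjusted p = 0.861 and 0.454). The region at 6530 bp, past the 3′ end, had heights of 34.4 and 36.1 in Input, 116 and 126 in PCM1 and 60.4 and 48.8 in Myc. It was higher in PCM1 than in Input by 1.66 ± 0.19 (limma, adjusted p = 2.13e-07), the largest difference among the 15 tested actin regions in the 3 contrasts, while Myc against Input gave 0.46 ± 0.19 (limma, adjusted p = 0.102). With the authors' fold enrichment as height, PCM1 against Input was 0.15 (limma, adjusted p = 0.844). The local background around this peak differed too. It was 6.56 and 6.48 times the genome-wide background in Input, 23.3 and 26.0 times in PCM1, and 13.7 and 12.7 times in Myc. The sequences of 101 bases around the summits at -1454 bp (chr2:114054291-114054391) and at 6530 bp (chr2:114046307-114046407), from the minus strand of GRCm38.p6, are shown as the regions called higher in PCM1 than in Input. Capitals mark a CArG-like sequence in the first, and the other held none.
Actc1 upstream region: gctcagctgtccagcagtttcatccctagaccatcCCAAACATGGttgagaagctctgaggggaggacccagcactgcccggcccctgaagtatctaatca
Actc1 region past the 3′ end: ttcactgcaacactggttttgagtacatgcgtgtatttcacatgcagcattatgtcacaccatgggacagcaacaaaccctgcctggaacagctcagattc

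Some cardiomyocyte markers were lower in Myc, as Actc1 was. Of 8 markers (Myh6, Myh7, Tnnt2, Tnni3, Actn2, Ryr2, Pln and Nppa) 7 had a start region tested, and Myh6, Tnnt2 and Tnni3 were lower in Myc than in Input and than in PCM1, where 9.12% and 13.7% of all regions were lower. Of the 10695 tested regions over a transcription start site (TSS), 9.94% and 7.64% were lower. Actn2, Ryr2, Pln and Nppa did not pass the test in either contrast, with log2 differences against Input of 0.0024, -0.18, -0.17 and -0.44. The list's mean promoter percentile was 89.9 and 82.2 in Input, 82.6 and 81.6 in PCM1 and 75.0 and 81.4 in Myc. Of 6 endothelial markers, Kdr and Emcn were higher in Myc than in Input, where 10.6% of tested regions over a TSS were higher. Pecam1, Cdh5, Tie1 and Tek were not called, with log2 differences of 0.07, 0.35, -0.25 and 0.97. The list's mean percentile was 74.6 and 51.6 in Input, 57.8 and 65.2 in PCM1 and 76.1 and 78.5 in Myc. Against PCM1, Kdr and Tek were higher in Myc, where 38.1% of tested regions over a TSS were higher. Pecam1, Cdh5, Tie1 and Emcn were not called there, with -0.39, 0.04, -0.11 and 0.72. Of 6 fibroblast markers 3 were tested. Dcn was higher in Myc than in PCM1 (log2 difference 0.89, limma, adjusted p = 0.0286), as were 38.1% of tested regions over a TSS. The mean percentile of the fibroblast list was 73.3 and 46.9 in Input, 46.3 and 36.0 in PCM1 and 69.2 and 71.4 in Myc. Of 6 immune markers 5 had no promoter peak in any library, and Lyz2 had one in both Input libraries. The part of these cell types in the Actc1 result was not tested.

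Acta1 differed from Actc1 in level and in the libraries that held its peaks. The peak at its start, with a median summit at -71 bp, was the only actin region present in all Input and PCM1 libraries and absent from both Myc libraries. Its rank percentile was 35.4 and 21.7 in Input and 41.8 and 50.5 in PCM1, and its height was 7.58 and 11.7 in Input and 15.4 and 19.9 in PCM1. This pattern of presence was found in 0.268% of all regions of the series. With the lists cut to an equal number of peaks, the start peak was absent from Input replicate 1 as well. The Myc lists held summits down to heights of 4.16 and 4.18, and 95% of their peaks were above 6.25 and 6.27, so a summit of the height seen in the other libraries was within their range. These limits depend on the local background, and a missing peak says only that none was detectable at that depth.

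A further Acta1 region lay at 3248 bp, just past the 3′ end of the gene, and showed another pattern. It had peaks in both Input libraries, with percentiles of 77.2 and 51.1 and heights of 19.7 and 17.6, and in both Myc libraries, with percentiles of 74.8 and 56.7 and heights of 25.0 and 15.3. No peak was found in either PCM1 library, whose lists held summits down to heights of 5.12 and 5.54. The same pattern was found in 2.26% of all regions. A weak region at 11471 bp had peaks in both Myc libraries alone, with percentiles of 10.5 and 24.3, and 1.84% of regions shared that pattern. No Acta1 region was tested, since none held a peak in every library. The 101 bases around the summit at 3248 bp (chr8:123891453-123891553, minus strand) are shown because this region was found in Myc and not in PCM1, the reverse of the start peak. They hold no CArG sequence, and a pair of overlapping CArG-like sequences lies further upstream, at -90.5 and -89.5 bp from the summit.
Acta1 region past the 3′ end: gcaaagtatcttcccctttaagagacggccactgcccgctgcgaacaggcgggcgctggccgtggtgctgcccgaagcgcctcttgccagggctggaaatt

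Acta2, the smooth muscle alpha-actin, had a start peak in every library. Its summit lay between 220 and 234 bp from the GENCODE start, which places the median summit 11 bp downstream of the RefSeq start. Percentiles were 83.2 and 61.4 in Input, 81.2 and 85.7 in PCM1 and 79.5 and 78.9 in Myc, and heights, in the same order, were 33.4 and 27.3, 46.1 and 65.3, and 39.6 and 39.7. The height was greater in PCM1 than in Input by a log2 difference of 0.74 ± 0.24 (limma, adjusted p = 0.0367). That call was lost without either Input replicate, without Myc replicate 1 and without PCM1 replicate 2, where adjusted p was 0.064, 0.308, 0.0504 and 0.261 (limma). Myc against Input gave 0.23 with a 95% interval from -0.25 to 0.71 (limma, adjusted p = 0.578).

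The region at 11309 bp in intron 7 of Acta2 was higher in Myc. Its heights were 16.2 and 26.4 in Input, 16.4 and 22.1 in PCM1 and 45.1 and 51.5 in Myc, so both Myc libraries lay above the other 4. The log2 difference was 1.30 ± 0.29 against PCM1 (limma, adjusted p = 0.00089) and 1.06 ± 0.29 against Input (limma, adjusted p = 0.0118). The call against PCM1 held without each library in turn. That against Input was lost without Input replicate 1 (0.73, adjusted p = 0.208), without Myc replicate 1 (adjusted p = 0.0752) and without Myc replicate 2 (adjusted p = 0.125; limma). A region at 1307 bp in intron 1 had a peak in 5 libraries and none in PCM1 replicate 1, and its summit was 9.5 bp from a CArG box. The region at -10280 bp, which lies across the end of the window and reached into it in 4 libraries, held a CArG box 31.5 bp from its summit and was not called in any contrast. Of the 14 actin regions with a peak in every library that were scanned, 3 held a CArG box within 150 bp of the median summit, as did 1.69% of the 48861 regions tested. The 101 bases around the summits at 1307 bp (chr19:34254233-34254333), -10280 bp (chr19:34265820-34265920) and 11309 bp (chr19:34244231-34244331) are given on the minus strand, with the CArG boxes of the first 2 in capitals.
Acta2 intron 1 region: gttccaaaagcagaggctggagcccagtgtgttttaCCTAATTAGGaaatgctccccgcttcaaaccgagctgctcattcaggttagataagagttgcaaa
Acta2 upstream region: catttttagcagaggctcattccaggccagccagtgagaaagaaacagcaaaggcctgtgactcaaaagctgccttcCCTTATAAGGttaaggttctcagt
Acta2 intron 7 region: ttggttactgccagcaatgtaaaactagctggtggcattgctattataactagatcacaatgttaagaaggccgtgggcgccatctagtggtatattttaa

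Of the 6 smooth muscle markers, 3 had a start region tested. Myh11, the smooth muscle myosin heavy chain, was lower in PCM1 than in Input (log2 difference -0.88, limma, adjusted p = 0.0129) and higher in Myc than in PCM1 (0.71, limma, adjusted p = 0.022). Smtn, which encodes smoothelin, was lower in Myc than in PCM1 (-0.44, limma, adjusted p = 0.00329), and Pdgfrb was not called in any contrast. Of the tested regions over a TSS, 22.5% were lower in PCM1 than in Input. In Myc against PCM1, 38.1% of them were higher and 7.64% lower. The list's mean percentile was 76.7 and 54.7 in Input, 59.0 and 47.9 in PCM1 and 61.6 and 72.6 in Myc. Whether these nuclei had a part in the Acta2 values was not tested.

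Actg2 had no peak within 1 kb of its start in any library. Its window held a region at -5961 bp in every library, with heights of 30.1 and 27.3 in Input, 27.6 and 27.7 in PCM1 and 31.9 and 38.3 in Myc. No contrast was called there, and Myc against PCM1 gave 0.30 with a 95% interval from -0.24 to 0.83 (limma, adjusted p = 0.432). A weak region in intron 5, at 14345 bp, had a peak in 5 libraries with percentiles from 10.2 to 39.9. The strongest peak of the window, with percentiles from 96.1 to 98.7, lay at the start of Dguok and did not belong to Actg2 by position.

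Actb and Actg1 each had a peak at the start and a stronger neighbour, and in both genes the balance between the 2 peaks differed in Myc. In Actb the start peak had heights of 87.2 and 81.0 in Input, 101 and 93.0 in PCM1 and 174 and 151 in Myc. The neighbour in intron 1, at 723 bp, had heights of 229 and 231 in Input, 249.8 and 252 in PCM1 and 198 and 206 in Myc. The start peak was thus 0.38 and 0.35 times as high as its neighbour in Input, 0.406 and 0.368 times in PCM1, and 0.881 and 0.733 times in Myc. In Actg1 the start peak had heights of 114 and 148 in Input, 123 and 158 in PCM1 and 215 and 216 in Myc. Its neighbour, at -1867 bp, had heights of 211 and 247 in Input, 299 and 304 in PCM1 and 181 and 205 in Myc. The ratio was 0.541 and 0.601 in Input, 0.411 and 0.52 in PCM1, and 1.19 and 1.05 in Myc, where the start peak was the higher. A ratio within a library does not depend on scaling between libraries, and in both genes the ratios in Myc lay above those of the other 4 libraries. A library-wide shift of starts against other regions still enters it. Median log2 height over TSS regions was 6.62 in both Myc libraries, 6.28 and 6.27 in Input and 6.12 and 6.19 in PCM1. In Acta2 the start was 0.877 and 0.77 times as high as the intron 7 region in Myc, 2.06 and 1.04 times in Input and 2.81 and 2.95 times in PCM1, the other way. This ratio was chosen after the heights were seen, and no test was made of it.

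**Figure D4:**
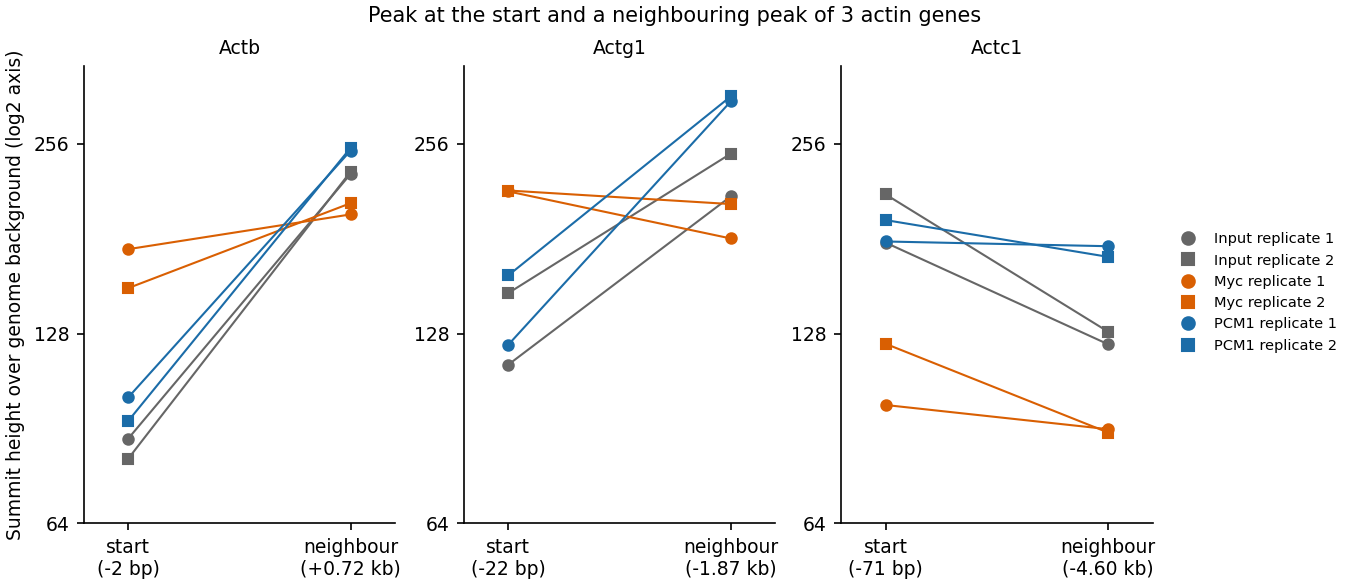
Summit height over the genome-wide background (y axis, log2 scale) of the peak at the start and of a neighbouring peak in Actb, Actg1 and Actc1. Each line joins the 2 peaks of a library. In Actb and Actg1 the lines of both Myc libraries are flatter than the rest or slope the other way, and in Actc1 both peaks are lowest in Myc.

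By limma, the start of Actb was higher in Myc than in Input by 0.79 ± 0.14 (adjusted p = 0.000178) and higher than in PCM1 by 0.70 ± 0.14 (adjusted p = 0.000346). The start of Actg1 was higher in Myc than in Input by 0.57 ± 0.13 (adjusted p = 0.00232), a call lost without Input replicate 1 (0.40, adjusted p = 0.0999), and higher than in PCM1 by 0.59 ± 0.13 (adjusted p = 0.000706). Starts in general moved the same way: the median log2 difference of 10695 tested regions over a TSS was 0.09 for Myc against Input, -0.23 for PCM1 against Input and 0.31 for Myc against PCM1. Centred on those regions, a choice made after seeing the data, the Myc against PCM1 differences were 0.28 for Actb and 0.16 for Actg1 and were no longer called (limma, adjusted p = 0.126 and 0.343), while both calls against Input held. The PCM1 and Input groups differed at these starts by 0.09 in Actb (limma, adjusted p = 0.758) and by -0.02 in Actg1 (limma, adjusted p = 0.947).

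The neighbours went the other way. The intron 1 region of Actb was lower in Myc than in PCM1 by -0.36 ± 0.10 (limma, adjusted p = 0.00671), which was lost without Myc replicate 1 (adjusted p = 0.054), and lower than in Input by -0.35 ± 0.10 (limma, adjusted p = 0.0154), which was lost without each Input and Myc replicate, with adjusted p between 0.0726 and 0.109. Under quantile normalization the 2 calls were lost as well, with -0.25 (adjusted p = 0.057) against PCM1 and -0.11 (adjusted p = 0.536) against Input by limma. The Actg1 region at -1867 bp was lower in Myc than in PCM1 by -0.69 ± 0.10 (limma, adjusted p = 3.50e-06), a call that held without each library. It was lower than in Input by -0.40 ± 0.10 (limma, adjusted p = 0.00587), and this was lost without Input replicate 2 (-0.31, adjusted p = 0.165) and without Myc replicate 1 (-0.33, adjusted p = 0.117), and under quantile normalization (-0.19, adjusted p = 0.25; limma). The Actg1 region at -5254 bp was lower in Myc than in PCM1 by -0.46 ± 0.17 (limma, adjusted p = 0.0391), and the call was lost without either Myc replicate or PCM1 replicate 1, with adjusted p of 0.0848, 0.205 and 0.319. The 101 bases around the summit at -1867 bp (chr11:120350359-120350459, minus strand), are shown because this region reached the greatest height of any actin peak, 304 in PCM1 replicate 2. They hold none of the motifs searched.
Actg1 upstream region: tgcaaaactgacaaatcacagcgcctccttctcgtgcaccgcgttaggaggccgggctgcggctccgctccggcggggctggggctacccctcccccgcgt

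The start peak of Actg1 lies over a shared promoter, since the lncRNA 0610009L18Rik starts within the same region. The percentile of 97.8 in PCM1 replicate 2 belongs to the neighbour, whose peak reached within 1 kb of the start there, and the start peak itself ranked at 80.3. With a promoter of 200 bp, the mean percentile of Actb was 80.8 in place of 97.0. The local background was high around these genes. It was 24.0 times the genome-wide background in the median at the Actb promoter, 30.5 times at Actg1 and 20.3 times at Actc1, against 1.71 times in the median over all peaks. It was 3.46 times at Acta2 and 1.68 times at Acta1.

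**Figure D5:**
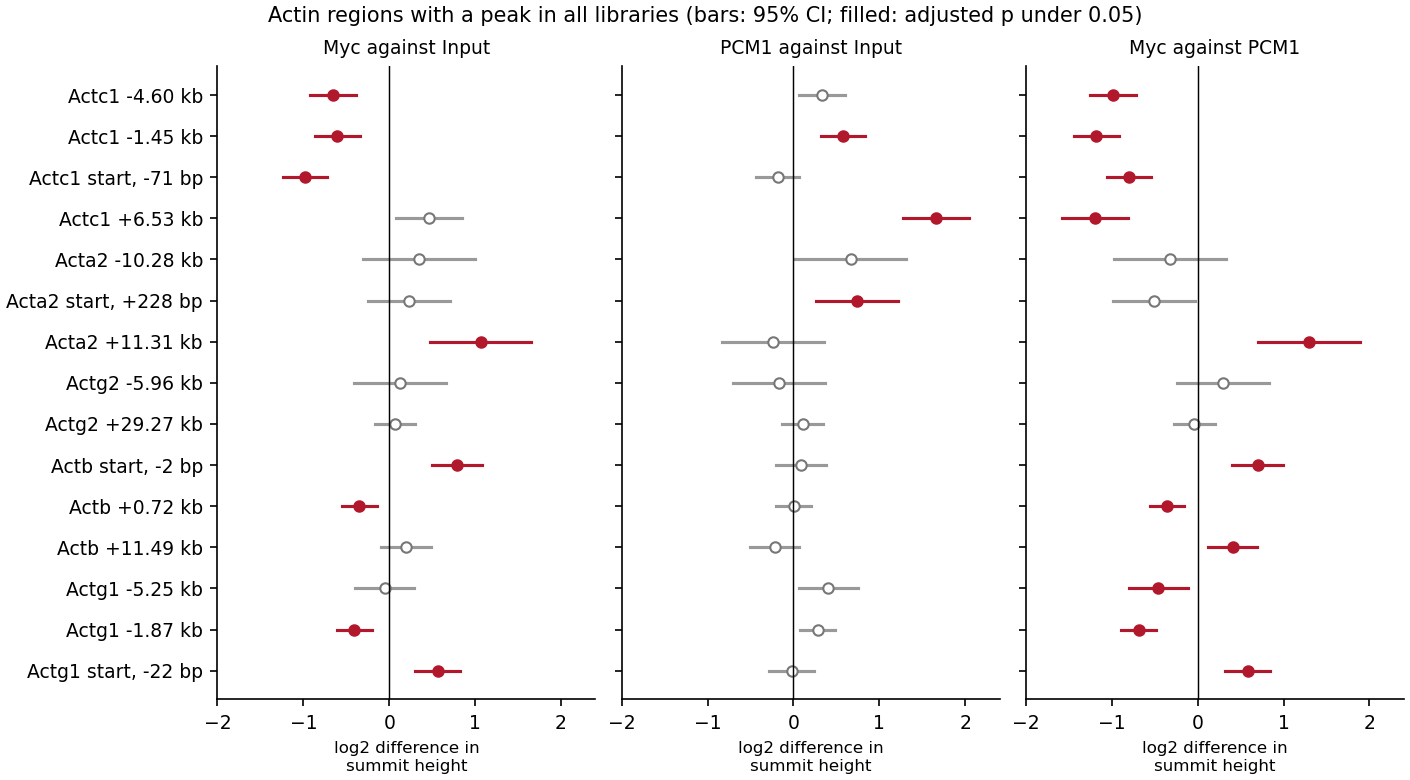
Log2 difference in summit height (x axis) of the 15 actin regions with a peak in every library, in 3 contrasts, with bars for 95% confidence intervals and filled points for an adjusted p under 0.05. Distances are from the start of the gene. In Myc against PCM1 the 4 Actc1 regions are lower in Myc and the starts of Actb and Actg1 are higher.

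Counted together, 8 of the 15 tested actin regions were called in Myc against Input, 3 higher and 5 lower, where 4.16% of all 48861 regions were called higher and 9.12% lower. In PCM1 against Input 3 were called, all higher, where 2.88% of regions were higher and 7.91% lower. In Myc against PCM1 11 were called, 4 higher and 7 lower, where 15.1% of regions were higher and 13.7% lower. The higher calls included the region at 11495 bp in the Actb window, which holds the start of Fbxl18. That call was kept under 4 of 12 alternative settings. The median log2 difference of the actin regions was 0.13, 0.11 and -0.36 in the 3 contrasts, against -0.02, -0.04 and -0.0026 over all regions, and regions of a gene are not independent of each other. With the intensity trend the SE depends on height, and the shares over all regions were not matched for height. The SE ran from 0.10 to 0.32 in the actin regions, and in most of them it was below the median over all regions, 0.275. The same difference is called more easily where the SE is smaller. Centred on regions over a TSS, the calls over all regions were 825 higher and 8303 lower in Myc against Input, in place of 2035 and 4458. They were 5159 and 1290 in PCM1 against Input, in place of 1408 and 3864, with 1766 and 2541 under quantile normalization, and 2354 and 17830 in Myc against PCM1, in place of 7390 and 6711. Every actin call in both contrasts with Input was lost when limma was run without the intensity trend, and when the authors' fold enrichment was used as height. The unadjusted p was under 0.05 in 7 and 4 actin regions for Myc against Input and in 4 and 4 for PCM1 against Input. In Myc against PCM1, 7 regions, 2 higher and 5 lower, and 2 regions, both higher, were called. Centred on regions over a TSS, 1 was higher and 9 were lower.

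By rank percentile, the 2 libraries of each group did not overlap with those of the other at the promoter in 4 of 5 actin genes for Myc and Input, where 38.1% of genes with a promoter peak did not overlap. Actg1 was higher in Myc, and Actc1, Actb and Acta1 were lower. The Actb value is that of the peak in intron 1, and with a promoter of 200 bp, which takes the start peak alone, Actb was higher in Myc, at 93.8 and 92.2 against 86.0 and 73.2 in Input. For PCM1 and Input it was 3 of 5, where 39.6% of genes did not overlap, with Acta1 higher in PCM1 and Actc1 and Actb lower. With the 200 bp promoter the Actb values of these groups overlapped. For Myc and PCM1 it was 4 of 5, with Actc1, Actb, Acta1 and Acta2 lower in Myc, where 72.8% of genes did not overlap, 65.2% higher in Myc and 7.61% lower. With the 200 bp promoter Actb and Actg1 were both higher in Myc, at 93.8 and 92.2 against 75.0 and 64.8 in PCM1 for Actb, and at 96.0 and 95.6 against 73.1 and 80.3 for Actg1. An exact permutation test of 2 against 2 libraries cannot give a two-sided p below 0.333, so none was made.

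Genes of actin regulation were read from a list of 12. All 12 had a promoter peak in at least 1 library, and 11 had one in all 6, while Mrtfa, an SRF coactivator, had none in Input replicate 2 and PCM1 replicate 2. Srf itself had a mean percentile of 96.2. Of the 10 with a start region tested, 3 were lower in Myc than in Input and 2 were lower in Myc than in PCM1. In these contrasts 9.12% and 13.7% of all regions were lower, and 9.94% and 7.64% of tested regions over a TSS. In PCM1 against Input the lowest adjusted p was 0.0666 (limma), for Myocd. Myocd, the SRF coactivator of cardiac and smooth muscle, was lower in Myc than in Input by -0.65 (limma, adjusted p = 0.000577). Lmod2, a leiomodin that lengthens thin filaments, was lower by -0.52 (limma, adjusted p = 0.00389), and Fhod3, a formin of the cardiac sarcomere, by -0.55 (limma, adjusted p = 0.00366). Against PCM1, Lmod2 was lower in Myc by -0.58 and Fhod3 by -0.76. The median log2 difference of the list was -0.18 for Myc against Input, -0.02 for PCM1 against Input and -0.16 for Myc against PCM1.

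Outside the windows, the genes with the most similar promoter percentiles over the 6 libraries were named by the smallest Euclidean distance. For Actb they were Nfe2l2 at a distance of 0.94 percentile points and Sik1 at 1.01. For Actc1 they were Sept6 at 4.65 and Fhl2 at 5.25, for Acta2 Rac2 at 6.50 and Spon1 at 6.80, and for Actg1 Mydgf at 9.70 and Arfrp1 at 10.4. The Actb percentiles matched were those of its peak in intron 1. For Actg1 the value in PCM1 replicate 2 was that of the neighbour at -1867 bp. Acta1 and Actg2 lacked a promoter peak in some libraries and were not matched.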

How the data were processed

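After trimming with fastq-mcf, reads were aligned by the authors to mm10 (Bowtie2 2.3.3.1), duplicates were handled with Picard 2.2.1, blacklisted regions were taken out (bedtools 2.7.1), ends were shifted for Tn5, and MACS2 2.1.0.20160309 was run per library with a q-value cutoff of 0.05. The deposited lists give for each peak a score, the fold enrichment of the summit over the local background as a ratio, the -log10 p-value and the -log10 q-value. No read counts were used. The pileup and local background at each summit were solved from the fold and the p-value, and at least 99.998% of pileups came out whole within 0.02. The most frequent local background of a library was taken as its genome-wide background, which differed up to 4.38 times between libraries. The lists held from 75336 to 131500 peaks.

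Log2 heights of the 48861 regions with a peak in all 6 libraries were centred on the median and fitted with limma 3.58.1 (R 4.3.3) with 3 group means, an intensity trend, and Benjamini-Hochberg adjustment over all regions at 0.05. On simulated heights for Myc against Input over 48861 regions, 68% of 100 differences of log2 1 and 100% of 100 differences of log2 2 were recovered. Among the unchanged regions 7 were called. The simulated spread was a smooth function of mean height, as the intensity trend assumes, so the recovery holds only under that assumption. Genes were taken from GENCODE M21 and promoter sequences from RefSeq. Named were the actin genes, their promoter, called and group-specific regions, the 2 nearest genes in promoter percentile, 12 regulators and 5 marker lists. The members and lists were chosen with earlier results of these data known. Alternatives were other rankings, promoter widths, starts, flanks and q-values, an equal number of peaks per library, quantile normalization, fold as height, no trend, a filter on low pileups, the replicate block, and each library left out. Values were computed in Python 3.11.15 with pandas 2.3.3.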

Additional observations from a re-analysis of the deposited data

How the results depend on the processing

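The number of regions called depended on the processing. With fold enrichment as height, 193 regions were called in Myc against Input, 278 in PCM1 against Input and 4069 in Myc against PCM1, and without the intensity trend 25, 18 and 8643, in place of 6493, 5272 and 14101. The same settings called 0 and 0, 0 and 0, and 2 and 7 actin regions by limma, and the unadjusted p was under 0.05 in 4 and 7, 4 and 4, and 5 and 9 of the 15. PCM1 against Input gave 5 actin calls under quantile normalization, 5 among regions with a mean pileup above the median, and 6 when centred on regions over a TSS, which was added after seeing the data. That centring gave -0.011 in Myc against PCM1, in place of 0.41, for the region at 11495 bp in the Actb window, which holds the start of Fbxl18. The cause of these changes was not tested. Leaving out 1 library at a time gave 2372 to 8511 calls in Myc against Input (4078 without Input replicate 1, 2372 without Input replicate 2, 2990 without Myc replicate 1 and 3550 without Myc replicate 2), 1511 to 4677 in PCM1 against Input (2650 and 1511 without Input replicates 1 and 2) and 8232 to 13223 in Myc against PCM1 (8232 without Myc replicate 1). Actin calls ranged from 5 to 8, with 5 without Input replicate 1 or Myc replicate 1, from 1 to 3, with 1 without Input replicate 2, and from 8 to 11. The replicate block called 8, 3 and 11 actin regions and 6632, 5433 and 14195 regions in all. The numbers were not taken as pairs, since deviations of same-numbered libraries correlated at 0.0072, -0.0041 and 0.0058, and it changed no actin call. Ranking by fold gave class gaps of 19.5, 18.7 and 0.804 points for cytoplasmic over smooth muscle, cytoplasmic over sarcomeric and sarcomeric over smooth muscle genes, and a promoter of 200 bp gave 44.9 for the first. Leaving out a library gave 52.8 to 56.4, 31.8 to 38.6 and 17.3 to 22.4 points. With 2 libraries per group, p-values rest on few samples, and depth limits which weak peaks were called.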
